A study of Mus musculus with 76 samples.

Results

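The genes described here are 10 genes of the NLRP3 inflammasome and of interleukin-1 signaling, taken by symbol from the 55536 genes of the count table: the sensor Nlrp3, the adaptor Pycard, the proteases Casp1 and Casp4, the pore-forming protein Gsdmd, the cytokines Il1a, Il1b and Il18, and the inhibitors Il1rn and Il1r2. All 10 were found. They were followed in whole-tumor RNA from 38 tumors of female Balb/c mice, grown under the skin of the flank. CT26, a colon carcinoma line, was inoculated at 1000000 cells, and 4T1, a mammary carcinoma line, and its engineered sublines at 500000 cells. 4T1-CAT cells carried human catalase and GFP, and 4T1-control cells GFP alone, delivered by lentivirus and switched on by doxycycline, which was in the diet of those mice from day 4; whether a subline is 1 clone is not stated. On day 6, per the labels, tumors received 100 ug alum, with or without 20 ug CAT-ABP, a catalase modified to bind alum, and they were harvested on day 8. The study asked what extra catalase outside or inside tumor cells does to a tumor's transcripts. The groups were CT26 alum (n = 5), CT26 CAT-ABP + alum (n = 6), 4T1 alum (n = 5), 4T1 CAT-ABP + alum (n = 6), 4T1-control alum (n = 6), 4T1-CAT alum (n = 5) and 4T1-CAT CAT-ABP + alum (n = 5). Every group was given alum, itself a known trigger of NLRP3, so the effect of alum alone was not measured, and the human transgene is not counted in the mouse table.

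In macrophages, neutrophils and related cells, inflammatory signals first raise the transcripts of Nlrp3 and Il1b, and a later signal such as potassium loss or swallowed crystals makes NLRP3 assemble with the adaptor ASC, the product of Pycard. The complex activates caspase-1, which cuts pro-IL-1β and pro-IL-18 to their active forms and cuts gasdermin D, whose fragments form membrane pores and can kill the cell. Much of this is control of proteins, so transcript levels describe how much of each component could be made and not whether the inflammasome was active.

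Promoters of 5 of the genes are shown because their genes took both courses in the comparison of CT26 with 4T1 tumors given below: transcripts of Pycard and Casp1, and on few counts Nlrp3, were higher in CT26, those of Il1a, also on few counts, were lower, and those of Il1b did not pass the test. Each is the 250 bases upstream of a RefSeq start on GRCm38.p6, written 5′ to 3′ on the gene's strand. Capitals mark 2 motifs of myeloid transcription factors: GAGGAA on either strand (the box bound by PU.1) and TTNNGCAA on either strand (bound by C/EBP proteins).
Nlrp3 (chr11:59542436-59542685, plus strand, 1 of 2 starts in the table): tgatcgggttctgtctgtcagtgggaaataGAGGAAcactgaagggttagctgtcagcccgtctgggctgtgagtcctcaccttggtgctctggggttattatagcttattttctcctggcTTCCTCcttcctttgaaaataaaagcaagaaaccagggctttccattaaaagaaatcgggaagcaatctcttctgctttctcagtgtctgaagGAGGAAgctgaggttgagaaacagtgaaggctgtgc
Pycard (chr7:127993868-127994117, minus strand): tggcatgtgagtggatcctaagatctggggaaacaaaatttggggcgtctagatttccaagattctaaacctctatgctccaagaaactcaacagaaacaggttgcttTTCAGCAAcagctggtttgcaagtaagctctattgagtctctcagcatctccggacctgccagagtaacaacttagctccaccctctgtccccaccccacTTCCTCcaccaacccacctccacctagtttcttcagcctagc
Casp1 (chr9:5298267-5298516, plus strand): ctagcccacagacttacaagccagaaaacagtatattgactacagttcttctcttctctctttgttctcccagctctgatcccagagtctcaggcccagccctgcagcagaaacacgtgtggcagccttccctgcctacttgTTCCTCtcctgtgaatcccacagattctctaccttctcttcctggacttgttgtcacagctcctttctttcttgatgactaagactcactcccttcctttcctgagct
Il1a (chr2:129309973-129310222, minus strand): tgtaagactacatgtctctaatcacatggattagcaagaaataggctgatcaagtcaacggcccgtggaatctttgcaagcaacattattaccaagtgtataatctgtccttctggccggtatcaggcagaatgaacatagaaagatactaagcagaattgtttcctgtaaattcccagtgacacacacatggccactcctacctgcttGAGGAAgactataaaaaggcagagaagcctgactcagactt
Il1b (chr2:129371140-129371389, minus strand): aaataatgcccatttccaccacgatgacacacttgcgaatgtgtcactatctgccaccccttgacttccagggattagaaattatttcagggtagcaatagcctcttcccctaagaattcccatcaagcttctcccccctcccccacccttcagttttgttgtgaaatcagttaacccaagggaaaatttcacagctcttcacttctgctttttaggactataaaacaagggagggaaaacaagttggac

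The Nlrp3 window held GAGGAA 3 times, starting 220, 129 and 36 bases upstream of the start, and the Pycard, Casp1 and Il1a windows held it once, 42, 108 and 41 bases upstream. The other Nlrp3 window in the table held no motif. TTNNGCAA was in the Pycard window only, 142 bases upstream. These letters are common: GAGGAA was in 7639 of 32851 RefSeq promoter windows of this length (23.3%) and TTNNGCAA in 9.56%. A strict form of the κB motif, GGGA-N-TTTCC, was in 0.356% of all windows and in none of the windows of these genes. Looser forms of the κB site were not searched, so its absence from these windows is not shown. The ISRE motif GAAA-NN-GAAA was in 2.98% of all windows and in none of theirs. TTCNNNGAA (7.02%) occurred in Il1r2 and TGANTCA, the AP-1 motif (6.75%), in Il1rn and Il1a. TATAAA occurred on the gene's strand in Il1a and Il1b, 32 and 31 bases upstream, and only on the opposite strand in Il18 (12.4% of all windows held it on either strand). A match is a description of these letters and not a bound site. The table had windows for 9 of the 10 genes, all but Gsdmd.

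In the GENCODE M21 annotation (GRCm38), Nlrp3 lies on chromosome 11 (59541568 to 59566956, plus strand), Pycard on chromosome 7 (127989708 to 127993867, minus strand) and Gsdmd on chromosome 15 (75862327 to 75867408, plus strand). Casp1 (5298517 to 5307265) and Casp4 (5308828 to 5336783) are neighbors on the plus strand of chromosome 9, where Il18 is also found (50554827 to 50581840, plus strand). Il1a (129299610 to 129309972, minus strand), Il1b (129364570 to 129371139, minus strand) and Il1rn (24336853 to 24351494, plus strand) share chromosome 2, and Il1r2 is on chromosome 1 (40074079 to 40125231, plus strand). The strand setting of the counting is not stated, so reads of Il1b and its antisense gene Il1bos, of Il18 and the opposite genes Bco2 and Tex12, of Il1a and Gm14023, of Il1r2 and Gm16894 or Gm37347, and of Pycard and Gm45205 may not have been fully separated.

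Each tumor was sequenced as 2 libraries with a protocol that primes reads at the 3′ end of transcripts, and the counts of both were added. Tumor totals lay between 493044 and 9077549 counts (median 4827387), the lowest being 4T1-control alum replicate 2. Values are CPM, counts scaled to 1000000 per tumor and adjusted over all groups by TMM, a method that evens out differences in library composition. Fold changes and adjusted p-values come from edgeR's quasi-likelihood test over all genes with enough counts, Benjamini-Hochberg adjusted, and a gene was called at 0.05 or less. Single genes were also compared by a two-sided exact permutation test of log2 CPM, whose smallest possible p is 0.00794 for 5 against 5 tumors, 0.00433 for 6 against 5 and 0.00216 for 6 against 6. The 90 exact tests of the 10 genes were not adjusted. As a check of the labels, 6 epithelial transcripts (Epcam, Cdh1 and 4 keratins) summed to between 40.7 and 85.3 CPM in CT26 alum tumors and between 1945.3 and 2881.6 CPM in 4T1 alum tumors.

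Pycard, Casp1, Casp4 and Gsdmd were higher in CT26 tumors than in 4T1 tumors, and Il18 was lower. With alum alone these 4 genes and Il1rn were called higher by 2.1- to 2.96-fold, and Il18 was called lower by 3.32-fold. Il1r2 was called lower by 1.82-fold. That call was lost with the pool, a set of tumors defined below by the index tags, as a block (log2 -0.42, edgeR adjusted p = 0.411). Il1a, at 1 to 17 counts a tumor in CT26, was called lower by 3.5-fold, and by more without 1 CT26 tumor, as given below with its values. Il1b, the best known product of the pathway, had nearly equal means (42.6 ± 23.4 and 41.8 ± 9.27 CPM, SD, n = 5 each). The comparison was then made in other tumors, those given CAT-ABP + alum, where the same genes were called apart from Il1rn, which missed the threshold, and Nlrp3, which was tested there and called on few counts. The 2 comparisons share no tumor, but they share the lines, so every property of the line and of its cells in the flank differs along with the genes described here.

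These counts stand on a wide background. A gene was tested only where enough tumors reached a cutoff of about 10 counts at the median depth. Of the 10 genes, all but Nlrp3 and Il1a reached it in most tumors of both groups. The counts that follow are over these 8, since a gene that reaches it mainly in one group is likely to differ. The shares of all genes beside them are over every tested gene, without this restriction. The 10 genes were chosen with earlier results of these data known, and the limit to 8 was set after values had been seen. The counts beside the shares are therefore a description and not a test of the set. In alum tumors 7 of the 8 were called, against 42.4% of 12817 genes: 5 were higher, against 21.3%, and 2 were lower, against 21.1%. In CAT-ABP + alum tumors 6 of the 8 were called, against 45.5% of 13016 genes: 4 were higher, against 21.8%, and 2 were lower, against 23.7%. Their median log2 fold change was 1.09 with alum and 0.79 with CAT-ABP + alum, beside 0.02 and -0.02 over all genes. The groups did not overlap for 5 of the 8 in each comparison, against 29.9% of all genes with alum and 22.3% with CAT-ABP + alum. All tumors are bulk samples, in which fewer cells of a type and less RNA per cell cannot be told apart.

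**Figure D1:**
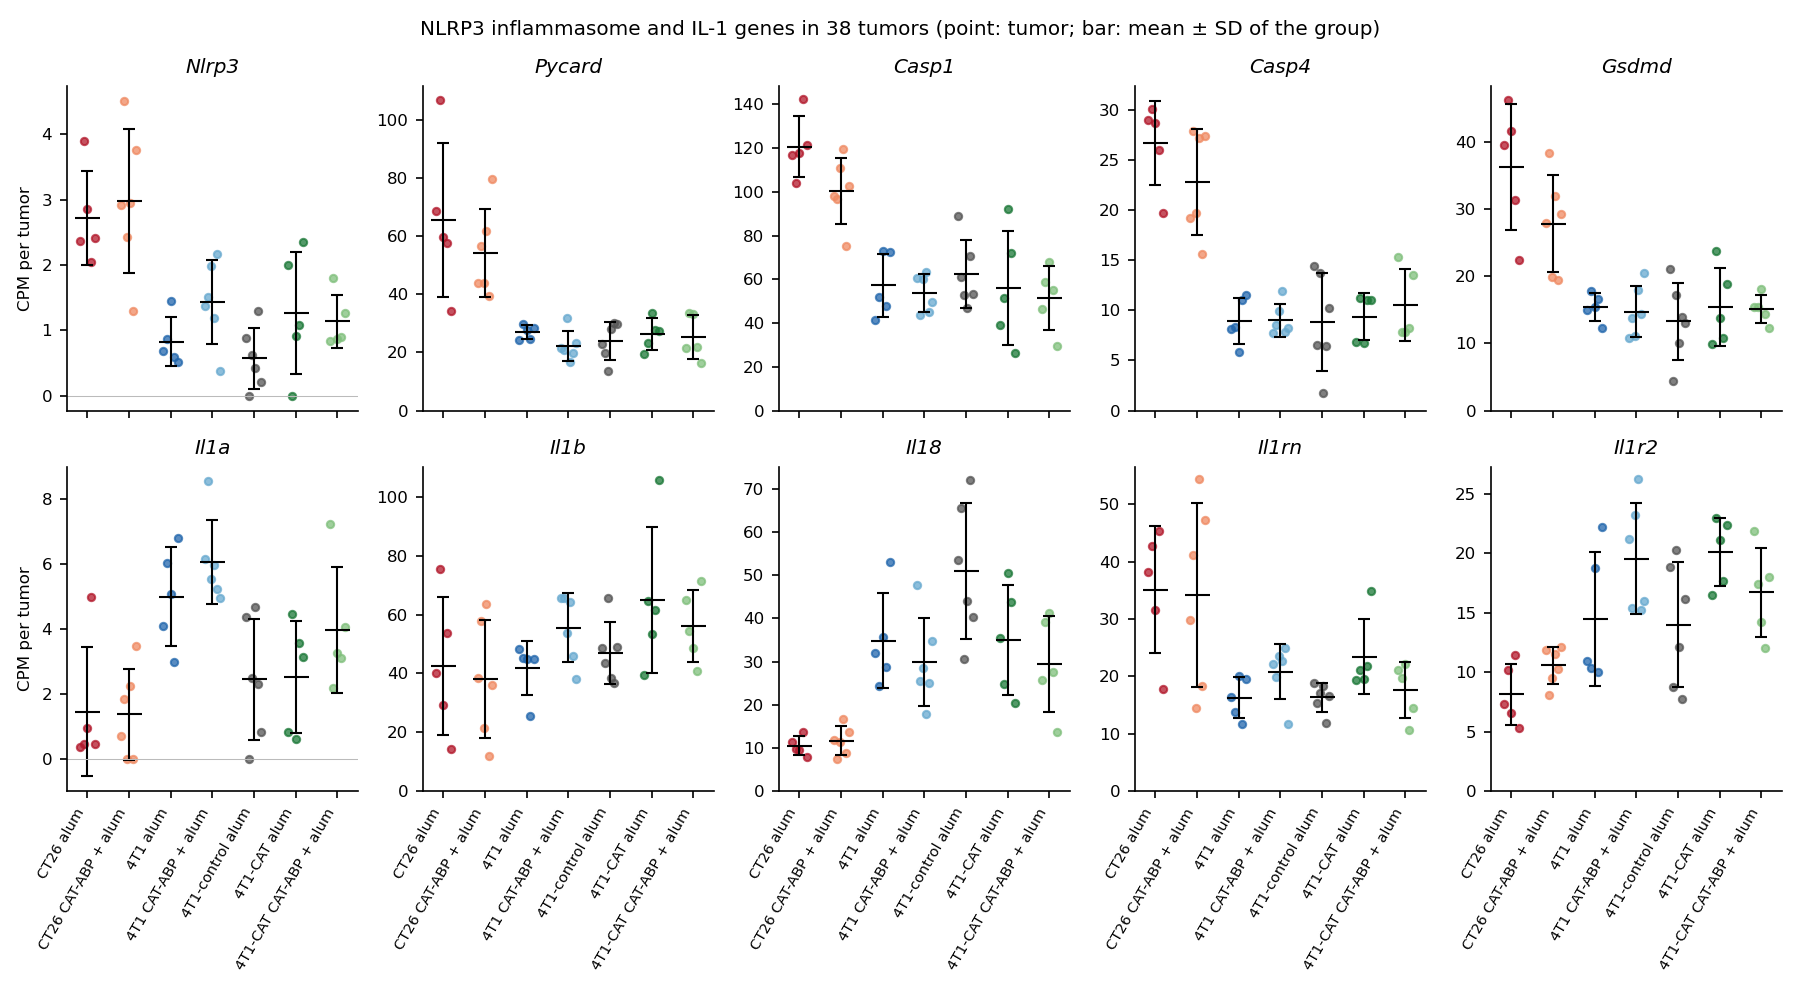
CPM of each of the 10 genes (y axis, linear) in the 7 groups (x axis), with 1 point per tumor and a bar for the mean ± SD of the group. The 11 CT26 tumors stand above the 4T1 tumors for Casp1 and Casp4 and below them for Il18 when set against the 11 tumors of the parental 4T1 line, whereas the Il1b points of all groups overlap.

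Nlrp3, the sensor, was read at 0 to 44 counts a tumor. In CT26 alum tumors it stood at 2.37, 3.89, 2.86, 2.05 and 2.41 CPM (mean 2.72 ± 0.718 SD). In 4T1 alum tumors it stood at 0.683, 0.862, 1.46, 0.598 and 0.523 CPM (mean 0.824 ± 0.375). No tumor of one group fell in the range of the other (exact permutation p = 0.00794). Nlrp3 had too few counts for edgeR's filter here, and without the filter its log2 fold change was 1.62 ± 0.55 (SE) with an adjusted p of 0.0243. With CAT-ABP + alum it lay between 1.31 and 4.51 CPM in CT26 (median 2.93) and between 0.382 and 2.17 CPM in 4T1 (median 1.44), with overlap between the groups. The log2 fold change was 0.96 ± 0.37 (SE, edgeR adjusted p = 0.0431, exact permutation p = 0.0195). Nlrp3 reached the filter's cutoff in 4 CT26 and 2 4T1 tumors, just the 6 needed, and the call was lost without the filter (edgeR adjusted p = 0.0956) and when any of 8 single tumors was left out (adjusted p 0.0517 to 0.119). In 2 tumors of the other 4T1 lines no Nlrp3 read was counted: 4T1-CAT alum replicate 2, where this allows up to 0.584 CPM (3 counts), and the shallow 4T1-control alum replicate 2, where it allows up to 6.55 CPM.

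Pycard encodes ASC, the adaptor that joins the sensor to caspase-1. Its level was 68.8, 107, 59.8, 57.7 and 34.2 CPM in CT26 alum tumors and 24.2, 29.9, 27.8, 24.6 and 28.5 CPM in 4T1 alum tumors. The lowest CT26 tumor was above the highest 4T1 tumor, and the 4T1 tumors differed little among themselves. The fold was 2.40 (log2 1.26 ± 0.23 SE, edgeR adjusted p = 0.000382). With CAT-ABP + alum Pycard lay between 39.3 and 79.8 CPM in CT26 (median 50.4) and between 16.7 and 31.7 CPM in 4T1 (median 21.2). The groups were again apart, by 2.34-fold (log2 1.23 ± 0.18, edgeR adjusted p = 3.45e-05).

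Casp1, the protease that matures IL-1β and IL-18, was counted at 117, 104, 118, 143 and 122 CPM in CT26 alum tumors and at 41.3, 52.0, 72.8, 47.9 and 72.4 CPM in 4T1 alum tumors. No CT26 tumor fell below 104 CPM and no 4T1 tumor rose above 72.8 CPM. Casp1 was 2.1-fold higher in CT26 (log2 1.07 ± 0.17 SE, edgeR adjusted p = 9.57e-05). With CAT-ABP + alum it lay between 75.0 and 120 CPM in CT26 (median 100.4) and between 43.9 and 63.3 CPM in 4T1 (median 54.9). The groups did not overlap there either, and the fold was 1.84 (log2 0.88 ± 0.15, edgeR adjusted p = 0.000102).

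Casp4, which in mice encodes caspase-11, the sensor of lipopolysaccharide inside cells, showed the largest fold of the genes that passed the filter and were higher in CT26. It was at 29.1, 30.2, 28.7, 26.1 and 19.8 CPM in CT26 alum tumors and at 8.19, 8.33, 5.82, 11 and 11.5 CPM in 4T1 alum tumors, again without overlap. That is a 2.96-fold difference (log2 1.57 ± 0.20 SE, edgeR adjusted p = 1.68e-05). With CAT-ABP + alum it lay between 15.7 and 27.9 CPM in CT26 (median 23.5) and between 7.71 and 11.9 CPM in 4T1 (median 8.37), a fold of 2.59 (log2 1.37 ± 0.19, edgeR adjusted p = 1.14e-05).

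Gsdmd, the pore former cut by both caspases, was at 39.5, 46.2, 41.5, 31.3 and 22.4 CPM in CT26 alum tumors and at 15.0, 17.8, 15.5, 16.6 and 12.3 CPM in 4T1 alum tumors. All CT26 tumors were above all 4T1 tumors, with replicate 5 the lowest CT26 tumor, as it also was for Pycard and Casp4. The fold was 2.33 (log2 1.22 ± 0.19 SE, edgeR adjusted p = 0.000121). With CAT-ABP + alum the ranges met, from 19.4 to 38.3 CPM in CT26 (median 28.6) and from 10.8 to 20.4 CPM in 4T1 (median 14.1). The fold was 1.90 (log2 0.92 ± 0.20, edgeR adjusted p = 0.00136, exact permutation p = 0.00649).

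The cytokines did not follow the assembly genes. Il1b read 40.1, 75.4, 29.1, 53.9 and 14.5 CPM in CT26 alum tumors and 48.5, 45.4, 44.9, 25.5 and 44.9 CPM in 4T1 alum tumors. The CT26 tumors lay on both sides of the 4T1 tumors, and the log2 fold change was 0.0028 ± 0.32 (SE, edgeR adjusted p = 0.995, exact permutation p = 0.802). With CAT-ABP + alum Il1b lay between 11.9 and 63.7 CPM in CT26 (median 37.2) and between 37.97 and 65.8 CPM in 4T1 (median 59.1). Its log2 fold change was -0.56 ± 0.30 (edgeR adjusted p = 0.133), and without CT26 replicate 4, the tumor with most Il1b, it was -0.76 (adjusted p = 0.0454). The SD of log2 CPM was 0.90 in each CT26 group against 0.38 in 4T1 alum and 0.33 in 4T1 CAT-ABP + alum tumors, and this difference in spread was not tested.

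Il18, the other substrate of caspase-1, had the opposite order to its protease. It was at 11.5, 9.73, 9.53, 13.8 and 7.95 CPM in CT26 alum tumors and at 32.1, 24.4, 35.7, 28.8 and 53.0 CPM in 4T1 alum tumors. No tumor overlapped, and Il18 was 3.32-fold higher in 4T1 (log2 fold change of CT26 over 4T1 -1.73 ± 0.22 SE, edgeR adjusted p = 1.40e-05). With CAT-ABP + alum it lay between 7.49 and 16.8 CPM in CT26 (median 11.6) and between 17.9 and 47.6 CPM in 4T1 (median 27.0). Il18 was 2.72-fold higher in 4T1 there, again without overlap (log2 -1.44 ± 0.22, edgeR adjusted p = 4.23e-05). Epithelial cells are a known source of Il18 in other tissues, and the epithelial transcripts above were lower in CT26 as well. Within groups, over the 38 tumors, Il18 had a Pearson r of -0.253 with the mean log2 CPM of the 6 epithelial markers. The part of epithelial cells in the result was not tested.

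Il1a, a cytokine that acts without caspase-1 and serves as an alarm signal of damaged cells, was at 0.395, 0.486, 0.953, 4.98 and 0.482 CPM in CT26 alum tumors, which is 1 to 17 counts. In 4T1 alum tumors it was at 4.1, 6.03, 5.09, 2.99 and 6.79 CPM. CT26 replicate 4 reached into the 4T1 range and the 4 other CT26 tumors were below it. The log2 fold change was -1.81 ± 0.56 (SE, edgeR adjusted p = 0.0166, exact permutation p = 0.0238). It ranged from -2.93, without CT26 replicate 4, to -1.53 when single tumors were left out. Il1a reached the filter's cutoff in all 5 4T1 tumors and in 1 CT26 tumor, so it was tested through the group where it is high, and the call was lost with the pool as a block (edgeR adjusted p = 0.0704). With CAT-ABP + alum Il1a lay between 0 and 3.49 CPM in CT26 (median 1.29) and between 4.96 and 8.54 CPM in 4T1 (median 5.76), with no overlap (log2 -2.19 ± 0.53, edgeR adjusted p = 0.0027), reaching the cutoff in 2 CT26 and 6 4T1 tumors. The 2 CT26 tumors with no Il1a read, replicates 3 and 5, had depths that allow up to 0.609 and 0.489 CPM (3 counts, counting error only).

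The inhibitors split. Il1rn, which encodes the soluble antagonist of the IL-1 receptor, was at 38.1, 42.8, 31.6, 45.4 and 17.8 CPM in CT26 alum tumors and at 16.4, 13.8, 20.0, 11.7 and 19.6 CPM in 4T1 alum tumors. Of the CT26 tumors, 4 were above every 4T1 tumor and replicate 5 was within their range. Il1rn was 2.15-fold higher in CT26 (log2 1.1 ± 0.24 SE, edgeR adjusted p = 0.00151, exact permutation p = 0.0238). With CAT-ABP + alum it spread from 14.4 to 54.4 CPM in CT26 (median 35.5) and from 11.6 to 24.9 CPM in 4T1 (median 22.4). That difference missed the threshold (log2 0.69 ± 0.28, edgeR adjusted p = 0.0528, exact permutation p = 0.121), and it was called in some other fits, such as DESeq2 (adjusted p = 0.0410) and 1 model over all groups (edgeR adjusted p = 0.0156), and without CT26 replicate 3 or 5 or 4T1 replicate 5 (edgeR adjusted p 0.00923 to 0.0405).

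Il1r2, the decoy receptor that binds IL-1 without signaling, was at 7.31, 10.2, 6.54, 11.4 and 5.30 CPM in CT26 alum tumors and at 10.9, 10.3, 18.7, 10.04 and 22.2 CPM in 4T1 alum tumors. The groups overlapped, and the log2 fold change was -0.86 ± 0.28 (SE, edgeR adjusted p = 0.0229, exact permutation p = 0.0635). With the pool as a block it was -0.42 (adjusted p = 0.411), which is not called. With CAT-ABP + alum it lay between 8.11 and 12.1 CPM in CT26 (median 10.9) and between 15.2 and 26.3 CPM in 4T1 (median 18.6). There the groups were apart (log2 -0.88 ± 0.19, edgeR adjusted p = 0.000924), 1.85-fold higher in 4T1.

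**Figure D2:**
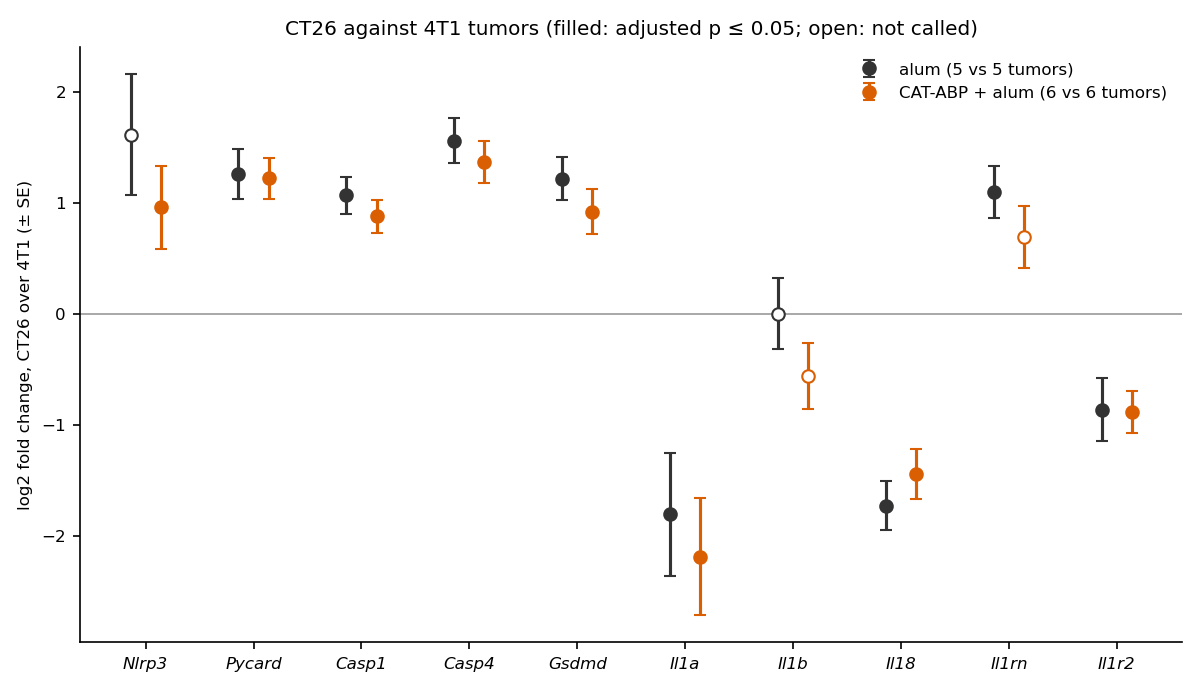
Log2 fold change of CT26 over 4T1 tumors (y axis, ± SE) for each of the 10 genes (x axis), in alum tumors (dark, 5 against 5) and in CAT-ABP + alum tumors (orange, 6 against 6). Filled points were called at an adjusted p of 0.05 or less; Pycard, Casp1, Casp4 and Gsdmd are filled above 0 and Il1a, Il18 and Il1r2 below 0 in both series, and Il1b is open in both. The alum value of Nlrp3 comes from the fit without a filter.

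By the first part of the index tags, each of 4 such parts being carried by 19 libraries, the tumors fall into 2 sets, called pools here; the library sheet gives the same whole tag to 2 libraries of 4T1-CAT alum tumors, whose first part is that of their own pool. All CT26 tumors and all 4T1 CAT-ABP + alum tumors were in pool 1, but only 2 of the 5 4T1 alum tumors were. With the pool as a block, the alum comparison called 6 of the 9 genes tested, without Il1a (log2 -1.86, edgeR adjusted p = 0.0704) and Il1r2 (log2 -0.42, adjusted p = 0.411). The share of all genes called with this block is not given, so the count has no background beside it. Within pool 1 alone, at 5 against 2 tumors, Il1a (log2 -1.84, adjusted p = 0.116) and Il1r2 (log2 -0.43, adjusted p = 0.383) were not called and Pycard, Casp1, Casp4, Gsdmd, Il18 and Il1rn were. Nlrp3 was not called there (log2 1.73, adjusted p = 0.0636). The CAT-ABP + alum comparison lay wholly in pool 1.

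The difference between Il1rn and Il1b was examined after these values had been seen. On the log2 CPM scale, Il1rn minus Il1b was -0.14 ± 0.42 (SD) in CT26 alum and -0.10 ± 0.48 in CT26 CAT-ABP + alum tumors. It was -1.33 ± 0.27 in 4T1 alum, -1.41 ± 0.32 in 4T1 CAT-ABP + alum, -1.49 ± 0.29 in 4T1-control alum, -1.42 ± 0.24 in 4T1-CAT alum and -1.67 ± 0.44 in 4T1-CAT CAT-ABP + alum tumors. Each of the 11 CT26 tumors, the lowest at -0.81, was above each of the 27 tumors of the 4T1 lines, the highest at -0.87. The mean of CT26 was above that of 4T1 by 1.19 with alum, by 1.31 with CAT-ABP + alum and, within pool 1, by 1.47 with alum at 5 against 2 tumors. In the 5 catalase comparisons the ratio differed by -0.25 to 0.07. Il1r2 minus Il1b and Il18 minus Il1b were also taken, and for both of them the CT26 and 4T1 groups overlapped in each of the comparisons of the models. The ratio shown was chosen for the difference of its genes between the models. Its values are therefore a description, and no p-value is drawn on.

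**Figure D3:**
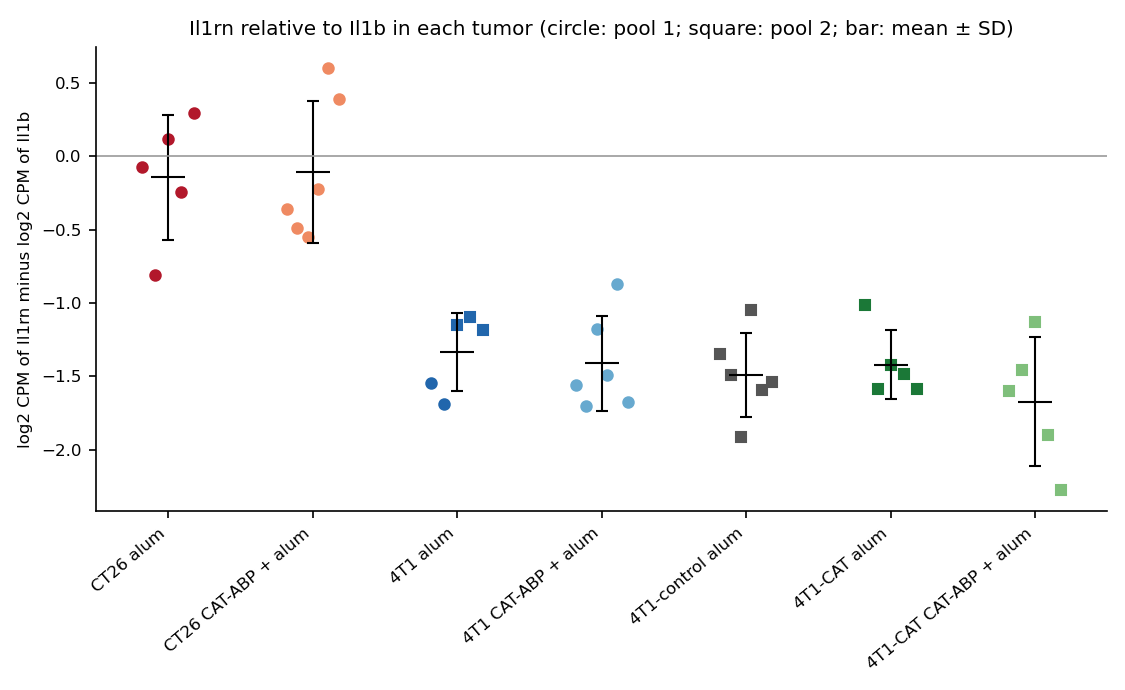
Log2 CPM of Il1rn minus log2 CPM of Il1b (y axis) in each tumor of the 7 groups (x axis), circles for pool 1, squares for pool 2, bars for the mean ± SD. The CT26 tumors lie between -0.81 and 0.60 and the tumors of the 4T1 lines between -2.27 and -0.87.

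Markers of other cells differed between the models along with these genes. Of 12 macrophage and monocyte markers, 5 were called higher and 0 lower in CT26 alum tumors (41.7% called, near the 42.4% of all genes, median log2 fold change 0.59), and 8 higher and 0 lower with CAT-ABP + alum (66.7%, against 45.5%, median 0.78). Their summed level ranged from 3642.5 to 3890.7 CPM in CT26 alum and from 1846.9 to 3719.8 CPM in 4T1 alum tumors, and from 2713.8 to 4548.2 and from 1614.2 to 2571.5 CPM with CAT-ABP + alum. Lyz2 was the largest part of these sums, with means of 2106.8 ± 250 (SD) CPM in CT26 alum and 1569.8 ± 697.5 CPM in 4T1 alum tumors. Lyz2 was not called with alum (edgeR adjusted p = 0.206) and was called higher in CT26 with CAT-ABP + alum (0.00151). Of the macrophage and monocyte markers Fcgr1 had the highest log2 fold changes, 1.45 with alum and 1.19 with CAT-ABP + alum. In the same order Pycard was at 1.26 and 1.23, Casp1 at 1.07 and 0.88, Casp4 at 1.57 and 1.37, and Gsdmd at 1.22 and 0.92. All 6 tested of 7 T and NK cell markers were called higher in CT26 in both comparisons, and their sum was 245 to 383 CPM in CT26 alum against 20.4 to 27.0 CPM in 4T1 alum tumors. Ptprc, the pan-leukocyte gene, was higher in CT26 by log2 1.54 and 0.76. Mast cell markers were higher too, 3 of 3 tested with alum and 4 of 4 with CAT-ABP + alum, and summed to 366 to 855 CPM in CT26 alum and 36.7 to 84.9 CPM in 4T1 alum tumors. Their part in the differences of the 10 genes was not tested.

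Neutrophils are a known source of Il1b and Il1r2, and their 11 markers gave no single direction. With alum 1 of 6 tested was called higher in CT26 and 1 lower (33.3% called, against 42.4% of all genes). With CAT-ABP + alum 2 were called higher and 1 lower (50%, against 45.5%). Both shares are near those of all genes. The sum was 65.8 to 110 CPM in CT26 alum and 159 to 231 CPM in 4T1 alum tumors, but most of the 4T1 sum was Mmp9 (113 ± 23.0 CPM in 4T1 alum, 12.7 ± 4.89 in CT26 alum), a protease made by other cells as well. Cxcr2 was at 39.8 ± 6.35 and 41.2 ± 5.03 CPM, and S100a8 and S100a9 were not called in either comparison. Of the granule markers, Ngp and Camp were at 0 in all CT26 alum tumors and Camp in all 4T1 alum tumors. The part of neutrophils in the result was not tested.

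The rest of the pathway was followed in 4 gene lists. Of 24 other inflammasome genes, 18 were tested in each comparison, and 8 were called higher and 1 lower in CT26 with alum, 8 higher and 2 lower with CAT-ABP + alum (50% and 55.6% called, against 42.4% and 45.5% of all genes, with median log2 fold changes of 0.69 and 0.46). Gbp2, a guanylate-binding protein induced by interferon that helps expose bacterial products to the inflammasome, was among the highest of them, at log2 3.17 with alum (edgeR adjusted p = 8.78e-08) and 2.47 with CAT-ABP + alum (6.11e-06). Gbp5, of the same family, was higher by log2 3.2 with alum (1.63e-05) and 2.09 with CAT-ABP + alum (0.000295). Ninj1, which ruptures the membrane of dying cells, was higher by 1.63 (7.22e-05) and 0.89 (0.000348) in the same order. Aim2, a sensor of DNA in the cytosol, was higher by log2 2.53 with alum (edgeR adjusted p = 0.000264) and 2.00 with CAT-ABP + alum (6.37e-05). Gsdme, another gasdermin, was higher by 0.67 (0.00113) and 0.89 (0.000181) in the same order. Casp8, the caspase of death receptors, was lower in CT26, with log2 fold changes of -1.11 and -0.97 (edgeR adjusted p = 1.59e-05 and 7.86e-05).

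Of 22 genes for other IL-1 family ligands, receptors and signal transducers, 19 were tested in each comparison, with 5 called higher and 3 lower in CT26 with alum and 4 higher and 2 lower with CAT-ABP + alum (medians 0.14 and 0.12). The shares called, 42.1% and 31.6%, were near and below the 42.4% and 45.5% of all genes. Il1rl1, the receptor of IL-33, had the largest difference, log2 4.39 with alum (edgeR adjusted p = 1.63e-09) and 3.38 with CAT-ABP + alum (5.28e-09). Il33 itself was higher by 2.11 with alum (0.000104) and 1.60 with CAT-ABP + alum (0.000137). Il18bp, a secreted protein that neutralizes IL-18, was higher in CT26 by log2 2.1 with alum (3.09e-07), the reverse of Il18. Il18rap, a chain of the IL-18 receptor, was higher by 1.34 (1.04e-05) and 1.01 (0.000785). Tab3, which links receptors to the kinase TAK1, was lower, with log2 fold changes of -1.44 (9.57e-05) and -1.42 (9.66e-05).

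All 14 genes of priming receptors and NF-κB were tested, with 3 higher and 1 lower in CT26 with alum and 3 higher and 3 lower with CAT-ABP + alum (medians 0.37 and 0.10). The shares called, 28.6% and 42.9%, were below the 42.4% and 45.5% of all genes. Tlr4, the lipopolysaccharide receptor, was called higher with alum (log2 0.97, edgeR adjusted p = 0.00156) and not with CAT-ABP + alum (0.41, 0.111). Its co-receptor Cd14 was called higher with CAT-ABP + alum (1.42, 1.44e-06) and not with alum (0.92, 0.0634). Nfkbiz, a nuclear IκB protein, was higher by 0.74 (0.0436) and 0.79 (0.00337). Nfkb1, a subunit of NF-κB, was lower, with log2 fold changes of -0.48 (0.0418) and -0.43 (0.0145). Nfkb2 was called higher with alum (0.65, 0.0460) and not with CAT-ABP + alum (0.43, 0.0882). Ly96, which binds lipopolysaccharide with Tlr4, was called higher with CAT-ABP + alum (0.82, 0.0106) and not with alum (0.58, 0.133).

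Of 13 genes known to be induced by IL-1, 11 were tested in each comparison, with 5 called higher and 1 lower in CT26 with alum and 3 higher and 2 lower with CAT-ABP + alum (54.5% and 45.5% called, against 42.4% and 45.5% of all genes, medians 0.49 and 0.47). The monocyte chemokine Ccl2 was higher by log2 2.27 (edgeR adjusted p = 4.26e-06) and 2.33 (4.87e-08). Ptgs2, the cyclooxygenase of inflammation, was called higher with alum (1.29, 0.000272) and not with CAT-ABP + alum (0.47, 0.191). Sod2, the mitochondrial superoxide dismutase, was likewise called with alum (0.43, 0.0292) and not with CAT-ABP + alum (0.0065, 0.980). Lcn2, a siderophore-binding protein of neutrophils and epithelia, was lower, with log2 fold changes of -1.84 (0.00105) and -1.49 (0.0029). Of the neutrophil chemokines, Cxcl5 was called higher with alum (0.98, 0.0348) and with CAT-ABP + alum (0.65, 0.0436). With CAT-ABP + alum Cxcl1 was called lower (-0.73, 0.0184) and Cxcl3 higher (0.96, 0.0380). Neither was called with alum (-0.65, 0.179, and 0.48, 0.551), and Cxcl2 was called in neither comparison.

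**Figure D4:**
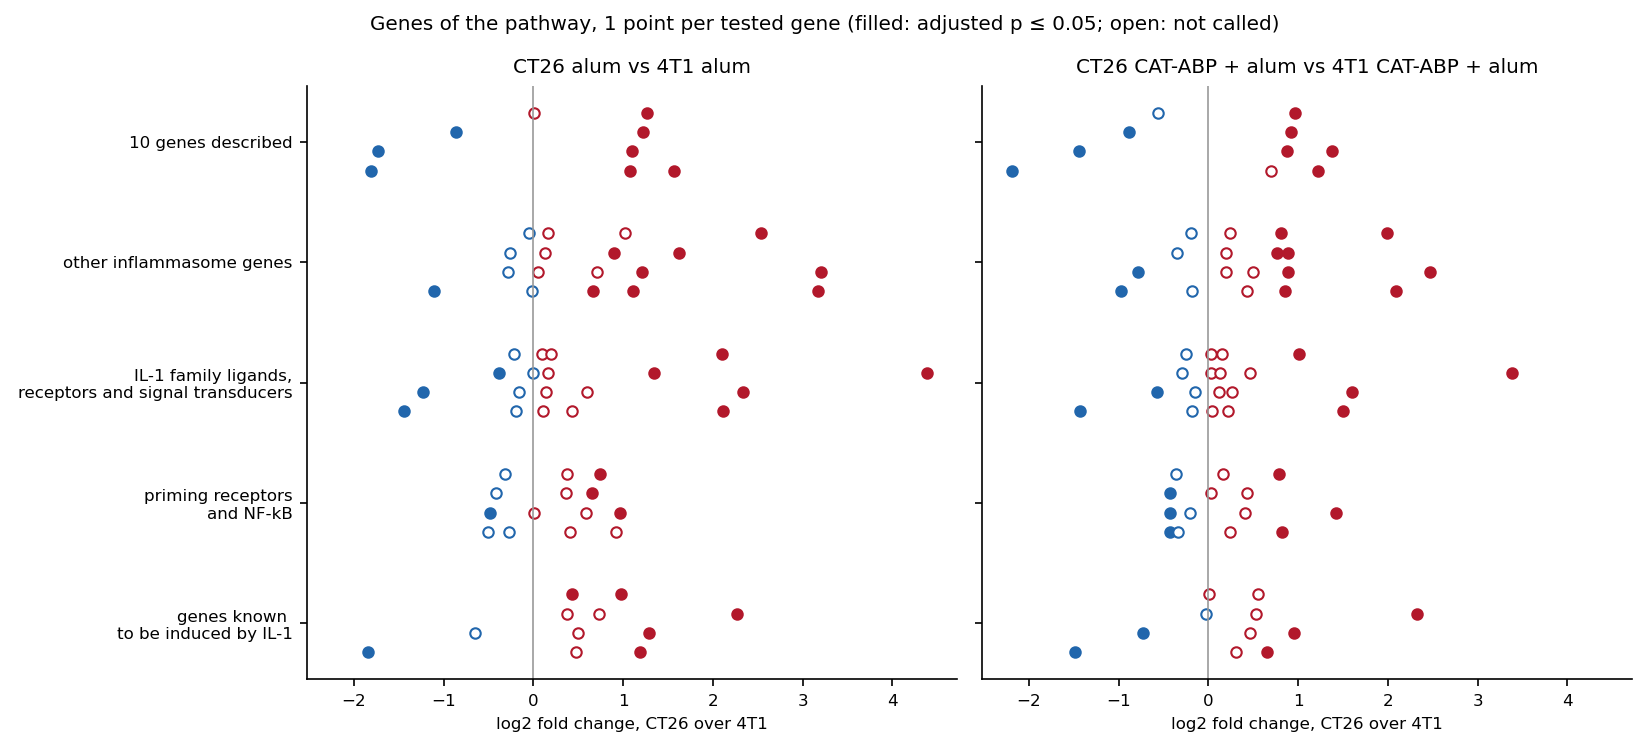
Log2 fold change of CT26 over 4T1 (x axis) for every tested gene of the 10 genes described and of the 4 other lists (y axis), with alum on the left and CAT-ABP + alum on the right. Red is higher and blue lower in CT26, and filled points were called; Il1rl1 is farthest to the right, at 4.39 and 3.38.

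Catalase outside the tumor cells was addressed by CAT-ABP + alum against alum in each model, and none of the 10 genes was called. In CT26, 9 genes were tested, 0 were called (0% of 12830 genes) and 0 were at an unadjusted p under 0.05 (2.42% of genes). Log2 fold changes of the assembly genes were 0.17 ± 0.34 (SE) for Nlrp3, -0.27 ± 0.25 for Pycard, -0.27 ± 0.13 for Casp1, -0.23 ± 0.18 for Casp4 and -0.38 ± 0.22 for Gsdmd, none of which passed the test (edgeR adjusted p = 1.00 each). For Casp1 the CAT-ABP + alum tumors had a mean of 100.6 ± 15.2 CPM (SD, n = 6) and the alum tumors 121 ± 14.0 (n = 5), with overlap (exact permutation p = 0.0433, edgeR adjusted p = 1.00). Il1b had means of 38.2 ± 20.1 and 42.6 ± 23.4 CPM, and Il1rn 34.2 ± 16.1 and 35.2 ± 11.01 CPM. Il1a had too few counts to be tested.

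In 4T1, again 9 genes were tested and 0 called (0% of 13092 genes), and 1 was at an unadjusted p under 0.05 (2.88% of genes). That gene was Il1b, with 37.97 to 65.8 CPM in CAT-ABP + alum tumors (median 59.1) against 25.5 to 48.5 CPM in alum tumors (median 44.9). Of the CAT-ABP + alum tumors, 4 were above every alum tumor and 2 were within their range. The log2 fold change was 0.40 ± 0.19 (SE, edgeR p = 0.0486, adjusted p = 0.999, exact permutation p = 0.0779), and without single tumors it ranged from 0.25 to 0.49. All CAT-ABP + alum tumors were in pool 1 and 3 of the 5 alum tumors in pool 2, and with the pool as a block the log2 fold change was 0.23 (edgeR adjusted p = 0.984). Il1rn and Il1r2 were at 0.34 ± 0.21 and 0.37 ± 0.23 and Pycard at -0.27 ± 0.15, none called. A test of whether the effect of CAT-ABP differed between CT26 and 4T1 called 0 of the 10 genes (0% of 14160 genes), with 0 at an unadjusted p under 0.05 (3.59% of genes).

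Catalase inside the tumor cells was addressed by 4T1-CAT against 4T1-control tumors, both given alum. Of 9 genes tested, 0 were called (0% of 12534 genes) and 1, Il1rn, was at an unadjusted p under 0.05 (5.08% of genes). Il1rn was at 19.4, 21.2, 19.6, 21.8 and 35.0 CPM in 4T1-CAT alum tumors and between 11.9 and 18.9 CPM in 4T1-control alum tumors (median 16.9). The groups did not overlap (exact permutation p = 0.00433, the smallest that 6 against 5 tumors allow), although the lowest 4T1-CAT tumor was only just above the highest control. The log2 fold change was 0.50 ± 0.20 (SE, edgeR p = 0.0209, adjusted p = 0.838), and it ranged from 0.32 to 0.56 when single tumors were left out. Il1b (log2 0.45 ± 0.22), Il1r2 (0.47 ± 0.23) and Il18 (-0.50 ± 0.24) had adjusted p-values between 0.985 and 0.988. Neutrophil markers summed to 165 to 359 CPM in 4T1-CAT alum and 107 to 219 CPM in 4T1-control alum tumors, and the 6 tested had log2 fold changes of 0.53 to 0.89, with 0 called. Ngp and Camp were at 0 in both groups and Ly6g in the controls. Log2 fold changes of other markers were above 0 as well, with 0 called: the median log2 fold change was 0.96 for 5 tested T and NK cell markers (sums of 24.4 to 87.2 and 28.4 to 33.3 CPM), 1.00 for 5 of skeletal muscle (167 to 432 and 95.8 to 264 CPM) and 0.40 for 7 of fibroblasts (2753 to 5834.5 and 2044.5 to 3002.3 CPM). The part of any of these in the Il1rn value was not tested.

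With both forms of catalase, 4T1-CAT CAT-ABP + alum tumors were set against 4T1-control alum tumors and against 4T1-CAT alum tumors. Against the controls 0 of 9 genes were called (0.0235% of 12781 genes) and 1 was at an unadjusted p under 0.05 (16.9% of genes). This was Il18, at 25.7, 39.1, 41.3, 27.6 and 13.8 CPM with both forms and between 30.6 and 71.9 CPM in the controls (median 48.8). The groups overlapped, and the log2 fold change was -0.74 ± 0.25 (SE, edgeR p = 0.00855, adjusted p = 0.145, exact permutation p = 0.0260). Without the filter on low counts Il18 was called (adjusted p = 0.0172). Against 4T1-CAT alum tumors 0 of 9 were called (0% of 13093 genes) and 0 were at an unadjusted p under 0.05 (15.3% of genes). Across the 5 catalase comparisons, which share control groups, 45 values of the 10 genes were tested and 0 were called, with 3 at an unadjusted p under 0.05 and a smallest adjusted p of 0.145.

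**Figure D5:**
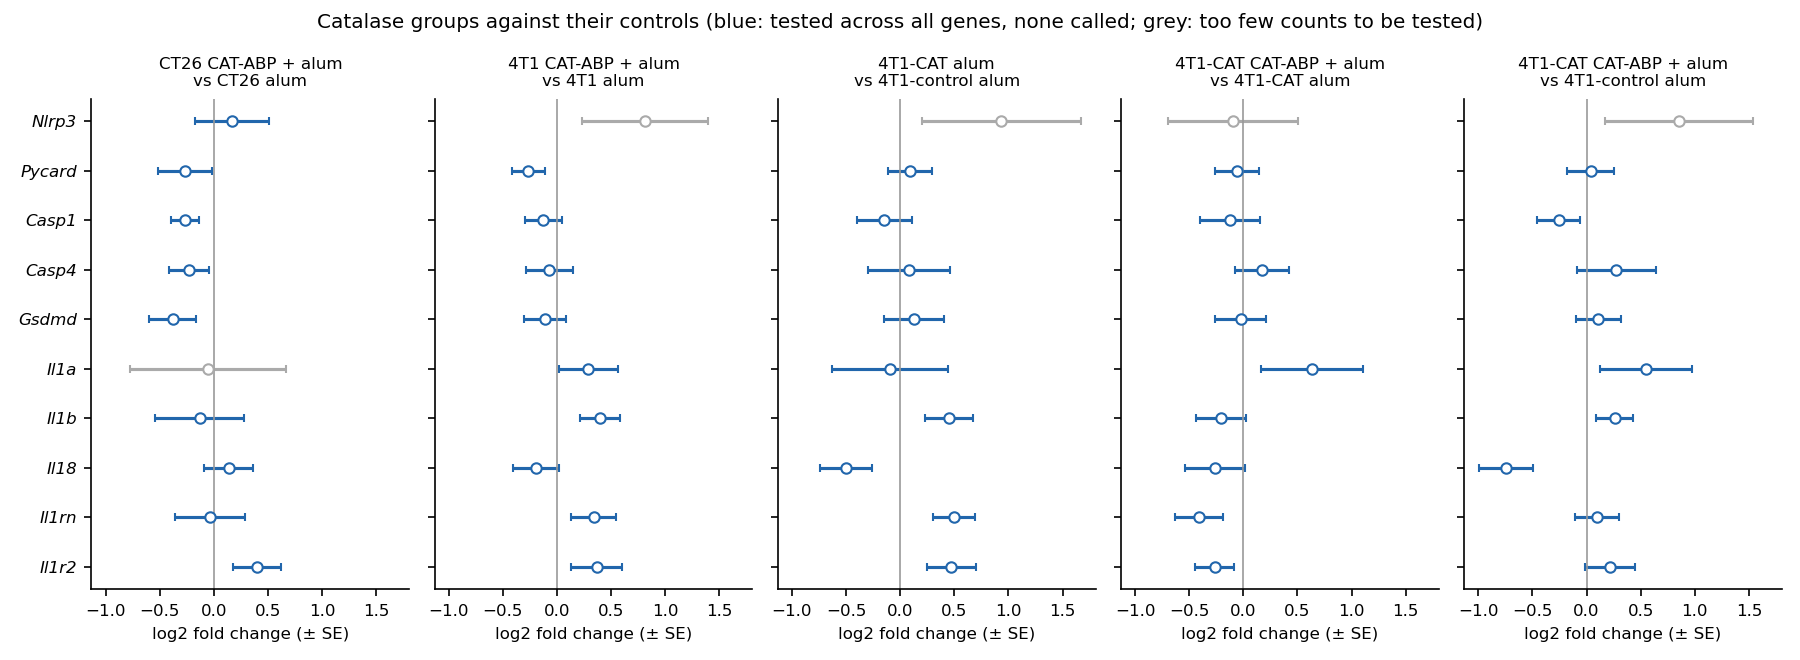
Log2 fold change (x axis, ± SE) of the 10 genes (y axis) in the 5 comparisons of a catalase group with its control. Blue points were tested across all genes and none was called, and grey points had too few counts to be tested; no tested value is farther from 0 than -0.74, that of Il18 in the last panel.

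The sublines were also set against the parental line, with which the controls above are shared. In 4T1-control alum against 4T1 alum tumors 0 of 9 genes were called (0% of 12431 genes) and 2 were at an unadjusted p under 0.05 (10.5% of genes). Il18 averaged 51.0 ± 15.7 CPM (SD, n = 6) against 34.8 ± 11.01 (n = 5), a log2 fold change of 0.50 ± 0.22 (SE, edgeR adjusted p = 0.418). Il1a averaged 2.46 ± 1.86 against 5.00 ± 1.51 CPM, a log2 fold change of -0.85 ± 0.41 (adjusted p = 0.473). In 4T1-CAT CAT-ABP + alum against 4T1 CAT-ABP + alum tumors 0 of 9 were called (0.0151% of 13235 genes) and 0 were at an unadjusted p under 0.05 (4.28% of genes), and Il1a was at 3.98 ± 1.94 (n = 5) and 6.07 ± 1.29 CPM (n = 6). All tumors of the last comparison's sublines were in pool 2 and all of the parental line in pool 1, so subline and pool cannot be told apart there. In both comparisons the sublines also differed from the parental line by the lentiviral vector, GFP and the doxycycline diet. These cannot be told apart from each other, with or without the pool as a block. In the alum comparison 3 of the 5 4T1 tumors were in pool 2 with all 6 4T1-control tumors, and with the pool as a block the log2 fold change was 0.34 for Il18 (edgeR adjusted p = 0.847) and -0.83 for Il1a (adjusted p = 0.743). A test for any difference among the 5 groups of 4T1 lines called 0 of 9 genes (0.382% of 13875 genes), and 2, Il1a and Il18, were at an unadjusted p under 0.05 (14.1% of genes, edgeR adjusted p = 0.264 and 0.346).

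Within the groups, some of the genes varied together from tumor to tumor. After each group's mean log2 CPM was subtracted, Il1b and Il1rn had a Pearson r of 0.777 over the 38 tumors (permutation within groups, p = 2e-05, adjusted over 45 pairs of genes 0.00090) and a Spearman rho of 0.662 (p = 0.00016). Without the 2 tumors farthest from the median of Il1b, r was 0.712, and it was 0.869 in the 11 CT26 tumors, 0.616 in the 27 tumors of 4T1 lines, 0.822 in pool 1 and 0.657 in pool 2. Casp1 and Il18, protease and substrate, had r = 0.672 (permutation p = 0.00011, adjusted 0.00248) and rho = 0.656 (p = 0.00012), with 0.615 without the 2 tumors farthest from the median of Casp1, although their group means went in opposite directions between the models. Their r was 0.365 in pool 1 and 0.801 in pool 2. Of the 45 pairs, 7 had an adjusted p of 0.05 or less, and r ran from -0.23 to 0.78. Both genes of a pair are read from the same libraries, so they share depth and cell composition.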

How the data were processed

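Total RNA from each tumor was turned into polyA-primed libraries by a modified SCRB-seq protocol, which counts transcripts near their 3′ end. Per the study's methods, reads were assigned to genes by the Smart-seq2 pipeline run in Terra. The values deposited by the authors are estimated counts per gene and library, not normalized (at a tolerance of 1e-06, 39.7% of those above 0 were fractional). The aligner, genome build, strand setting and use of molecular identifiers are not given in the sources used here. The authors excluded some technical replicates for low depth without naming them, so all 76 libraries were kept, between 46233 and 6958626 counts each (median 2075009), 7 of them under 518752. The paper's methods and the labels differ by a day in the times, and those of the labels are used.

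Counts were added over a tumor's 2 libraries, then rounded. Between these libraries the log2 CPM of a gene described here differed by a median of 0.20 (Il1b) to 0.81 (Nlrp3). After filterByExpr and TMM scaling, edgeR 4.0.16 (glmQLFit, glmQLFTest) was run on the groups of each comparison, with R 4.3.3, limma 3.58.1 and data.table (version 1.17.8). For log2 CPM the prior count was 2. Exact tests, permutations (100000 for correlations) and figures used Python 3.11.15, pandas 2.3.3, scipy 1.17.1 and matplotlib 3.10.9. The test was tested on simulated counts. The alternatives were DESeq2 1.42.0, RLE size factors, no filter, 1 model over all 7 groups, and the replicate number or the index-tag pool as a block. Others were each technical replicate alone, low-depth libraries left out, leaving out each tumor and, for exact tests, a prior count of 0.5. Pool 1 alone, the ratios, the permutations of pairs of genes and the restriction to the 8 genes that reach the filter's cutoff in most tumors of both groups were added after values had been seen. Same-numbered tumors deviated together with r between -0.29 and 0.33 over the comparisons, at 5 or 6 pairs each. So few pairs cannot decide whether the numbers pair the tumors, and the main test did not use them as pairs.

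The 10 genes and the gene lists were chosen with earlier results of these data known. All 10 genes are named. From the other lists up to 4 called genes with the smallest adjusted p were named per comparison, with values in both comparisons. Cxcl5 and Cxcl2 were added to them as neutrophil chemokines. Positions come from GENCODE M21, which held 34328 of the 34366 gene IDs with a count. Promoter sequences come from RefSeq on GRCm38.p6.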

Additional observations from a re-analysis of the deposited data

Results flagged for a closer look

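Single tumors stood apart from the rest of their group (Dixon's test) in 5 of the 70 sets of values checked, 10 genes in 7 groups, and chance alone puts about 1 in 20 such sets apart. Il1a in CT26 alum replicate 4 was at 4.98 CPM, with the 4 other tumors between 0.395 and 0.953. Il1a in 4T1 CAT-ABP + alum replicate 2 was at 8.54 CPM, with the others between 4.96 and 6.17. Il1b in 4T1 alum replicate 4 was at 25.5 CPM, with the others between 44.9 and 48.5. Il1rn in 4T1 CAT-ABP + alum replicate 6 was at 11.6 CPM, with the others between 19.9 and 24.9. Il1rn in 4T1-CAT alum replicate 5 was at 35.0 CPM, with the others between 19.4 and 21.8.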

How the results depend on the processing

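No called value of the 10 genes changed sign under any alternative run. In the alum comparison of CT26 with 4T1, Il1r2 lost its call with the replicate block (log2 -0.82, edgeR adjusted p = 0.0523), with technical replicate 2 alone (0.120) and without CT26 alum replicate 1 or 3 or 4T1 alum replicate 3 or 5 (0.0507 to 0.0659), and Il1a with technical replicate 1 alone (0.0719) and without CT26 alum replicate 3 (0.0514). In the CAT-ABP + alum comparison Nlrp3 lost its call with the replicate block (log2 0.93, edgeR adjusted p = 0.105) and without replicate 1, 2, 4 or 6 of either group, and Il1b was called lower in CT26 with the replicate block (log2 -0.75, edgeR adjusted p = 0.0118). Without single tumors 4823 to 5718 genes and 6 to 8 of the 10 were called with alum, and 5396 to 6421 genes and 7 to 9 of the 10 with CAT-ABP + alum; technical replicate 2 alone called 2849 and 3559 genes. Counts of all genes called in the other comparisons moved more, and the cause was not tested. CAT-ABP + alum against alum called 1 gene in CT26 with DESeq2 and 1 with no filter, and 16 in 4T1 with no filter. 4T1-CAT against 4T1-control called 6 with DESeq2, 131 with no filter and 0 to 1 without single tumors. 4T1-CAT CAT-ABP + alum against 4T1-CAT alum called 266 with DESeq2, 47 with no filter, 3 with the replicate block and 0 to 1 without single tumors. Against 4T1-control it called 510, 532 (1 of the 10, Il18) and 1 in the same order, 31 in 1 model over all groups, 0 and 1 with technical replicates 1 and 2 alone, 142 without low-depth libraries, and 0 to 575 without single tumors (575 without 4T1-control alum replicate 3, 131 without replicate 2). 4T1-control against 4T1 called 16 with DESeq2, 130 with no filter, 10 in 1 model, 14 without low-depth libraries and 0 to 6 without single tumors. 4T1-CAT CAT-ABP + alum against 4T1 CAT-ABP + alum called 8 with DESeq2, 13 with no filter, 1 in 1 model, 0 with the replicate block, 0 with either technical replicate alone and 0 to 2 without single tumors. The interaction called 2 genes with no filter. The prior count of 0.5 moved no exact p across 0.05. Depth limits Nlrp3 and Il1a most, at 0 to 53 counts a tumor.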

Other observations

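Marker sets of several cell types varied with the genes within groups. Each set was taken as the mean log2 CPM of its tested markers, over the 38 tumors and after each group's mean was subtracted. Il1b had a Pearson r of 0.719 with 6 T and NK cell markers, 0.666 with 7 neutrophil markers and 0.434 with 12 macrophage markers, and Il1rn had 0.577, 0.612 and 0.330 in the same order. Il1r2 had 0.613 and Il1a 0.585 with neutrophil markers, where Casp1 had -0.302 and Il18 -0.264. Gsdmd had 0.694 with 6 dendritic cell markers and 0.588 with macrophage markers, and Pycard had 0.620 with macrophage markers and 0.494 with T and NK cell markers. These are descriptions of the same libraries, and their part in the results was not tested.

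Among all genes tested in a model over all groups, those most like a gene described here over the same 38 values were, for Il1b, Glipr2 (r = 0.807), Fabp5 (0.803) and Saa3 (0.799). For Il1rn they were Saa3 (0.845), Ccl3 (0.825) and Ly6c1 (0.772). For Casp1 they were Insl6 (0.908), Npc2 (0.890) and Psme2 (0.883), and for Nlrp3 Acap3 (0.653), Mc1r (0.635) and Tcf7 (0.629).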
